A study of Saccharomyces cerevisiae with 6 samples.

Results

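The cytosolic ribosomal proteins of the large subunit are described here across 3 strains and 2 growth phases of the budding yeast *Saccharomyces cerevisiae*. The members were chosen by gene name, as *RPL1* to *RPL28*, *RPL30* and *RPL32* with their A and B copies. They are 53 genes, of which 52 were among the 6225 systematic names with a probe. *RPL20A* had none in the tables used here, so *RPL20B* stands alone. *RPL3*, *RPL5*, *RPL10*, *RPL25*, *RPL28*, *RPL30* and *RPL32* are single-copy genes, and the others form 23 paralog pairs, of which 22 were measured in both copies.

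The large subunit of the ribosome holds the peptidyl transferase centre, where peptide bonds form, and the tunnel through which the new chain leaves. Its proteins are made in near equal numbers, and yeast matches their transcription to growth through the factors Rap1, Fhl1, Ifh1 and Sfp1, under the control of TOR signalling. Cells that run out of nutrients stop making ribosomes, and the transcripts of these genes are known to decline as a group. Most yeast ribosomal protein genes exist as a pair of copies left by an old duplication of the genome, and both copies of a pair encode the same or nearly the same protein.

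The study compared wild-type cells, *ccr4Δ* cells and *ccr4Δ pbp1Δ* cells grown in the rich medium YPD at 28°C, each in log phase and in stationary phase. Ccr4 is the main deadenylase of yeast, the enzyme that shortens the poly(A) tail of mRNAs before their decay. Pbp1 is a protein that binds the poly(A)-binding protein. The study's strain list gives the *ccr4Δ* strain as MATa with *CCR4* replaced by the marker *CgLEU2*. It calls no strain wild-type. Its haploid strain without a deletion is MATα and also carries an *ADE2* reporter under the *HO* promoter, which the *ccr4Δ* entry lacks, and whether the wild-type arrays were made from that strain is not given in the sources used here. Both entries share ade2, trp1, can1, leu2, his3 and ura3. The mating type of the *ccr4Δ pbp1Δ* strain is not given in the sources used here. Each strain and growth phase had 1 array, with 100 ng of total RNA labelled in 1 colour, Cy3, so a ratio of 2 arrays has no replicate check. Nothing says whether the log phase and stationary phase cells of a strain came from 1 culture. The RNA of an array came from many cells together, so less of a transcript per cell and fewer cells that hold it cannot be told apart. Each array was labelled from the same amount of total RNA, so a change in RNA per cell does not show in the signal.

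Of the 6256 probes, between 92.7% and 98.4% were well above background on an array, and the 75th percentile of the signal lay between 10689 and 16412 units. The signal of *CCR4* in wild-type exceeded that in *ccr4Δ* by at least 124-fold in log phase and 157-fold in stationary phase. *PBP1* was at least 546-fold and 278-fold higher in *ccr4Δ* than in *ccr4Δ pbp1Δ*. These bounds take the dim array at the lowest signal well above background. Slide 1 held wild-type in log phase and slide 2 held the remaining 5 arrays. Of 11 stationary phase markers, 10 had a probe. Their summed signal, in units of the array's 75th percentile, was 4.37, 12.6 and 5.44 on the log phase arrays of wild-type, *ccr4Δ* and *ccr4Δ pbp1Δ*, and 49.4, 43.1 and 41.4 on the stationary phase arrays. All 10 were well above background on every array. The summed signal of 7 MATa-specific genes was 0.242 and 0.288 on the wild-type arrays and between 2.26 and 17.0 on the mutant arrays, and *MFA2* and *AGA2* were not well above background in wild-type in log phase. That of 4 MATα-specific genes was 23.2 and 0.728 in wild-type and between 0.128 and 0.353 in the mutants, with *MF(ALPHA)2* not well above background in *ccr4Δ pbp1Δ* in stationary phase. By these sums, both mutants had more MATa-specific and less MATα-specific signal than wild-type in each growth phase. Deletion of *CCR4* and mating type cannot be told apart between wild-type and *ccr4Δ*.

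All 52 measured members were well above background on all 6 arrays and none was saturated. Each had 1 probe with 2 spots. The level of a gene is given here as log2 of its signal relative to the 75th percentile of the array, so 0 is the 75th percentile and 1 unit is a 2-fold difference. The SD between the spots of a member's probe was 0.062 to 0.079 on this scale, which covers technical error within an array only. Levels of different probes also differ in hybridisation, so members are compared by their ratios between arrays.

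The median level of the members in log phase was 4.03 in wild-type, 3.48 in *ccr4Δ* and 3.67 in *ccr4Δ pbp1Δ*. In stationary phase it was 0.79, 0.41 and -0.07. Where 3 values are given together, here and in the rest of the text, they are in this order of strains. The stationary phase arrays thus held the 3 lower medians. The members' levels ran from -0.93 to 4.82 on the wild-type log phase array and from -5.08 to 1.84 on the *ccr4Δ pbp1Δ* stationary phase array. On the log phase arrays, the levels of 98.2% of all genes in wild-type, 98.0% in *ccr4Δ* and 98.1% in *ccr4Δ pbp1Δ* lay below the members' median, and in stationary phase 85.7%, 81.1% and 73.9% did.

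**Figure D1:**
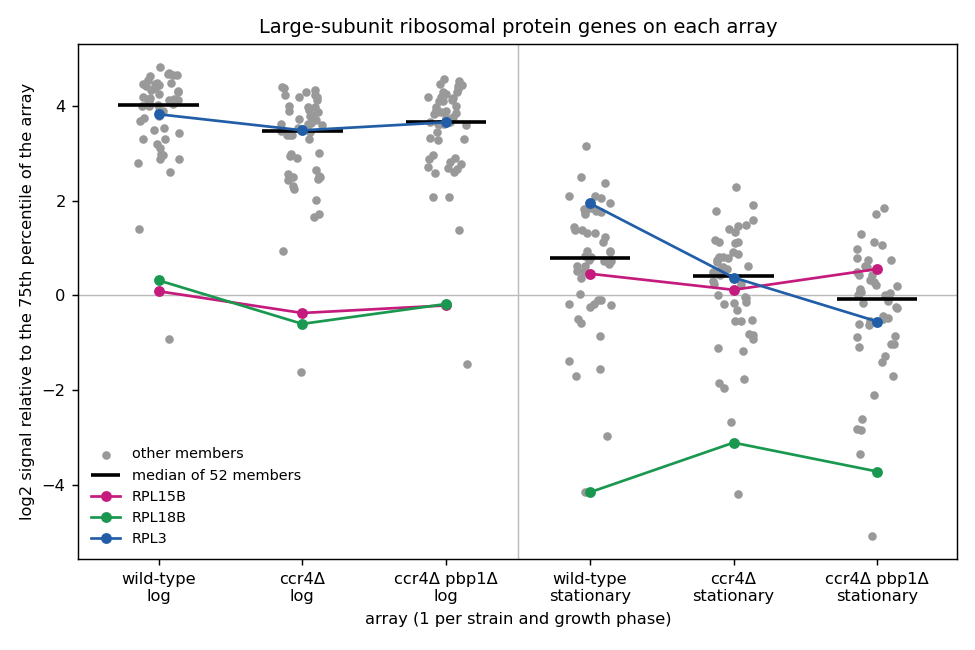
Level of each of the 52 members on each array (vertical axis, log2 signal relative to the array's 75th percentile; horizontal axis, strain and growth phase, 1 array each), with black bars at the members' medians and lines for *RPL15B*, *RPL18B* and *RPL3*. The medians lie at 4.03, 3.48 and 3.67 in log phase and at 0.79, 0.41 and -0.07 in stationary phase, while *RPL15B* stays between -0.37 and 0.56.

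The members were lower in stationary phase than in log phase in every strain. In wild-type, the median log2 ratio of stationary over log phase was -3.11, an 8.65-fold lower level, and 51 of 52 members were at least 1.5-fold lower, a limit that 30.5% of all genes passed in this direction and 33.4% in the other. In *ccr4Δ* the median was -3.0, 8.0-fold lower, again with 51 members past the limit against 26.2% of all genes, and 29.9% in the other direction. In *ccr4Δ pbp1Δ* the median was -3.83, 14.2-fold lower, with 51 members past the limit against 28.6% of all genes. The member left over was *RPL15B* in each strain. The wild-type ratio was taken across slides 1 and 2, so slide and growth phase cannot be told apart in it. All arrays of the mutants lay on slide 2. Relative to *ACT1*, a common reference transcript whose own ratio was -2.35 in wild-type, the wild-type median was -0.76 and 45 of 52 members were below 0, while the medians of the mutants were -2.31 and -3.39.

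An additive limma fit of strain and growth phase over the 6 arrays gives the growth phase a test. It has 2 residual degrees of freedom, and its spread is how far the strains differ in their shift, not the spread between cultures. Of the 52 members, 51 fell from log to stationary phase (limma, Benjamini-Hochberg adjusted p from 7e-04 to 0.00309), against 22.6% of 5724 genes that fell and 25.7% that rose. The median difference of the members was -3.26. *RPL15B* had a difference of 0.55 (SE 0.23, adjusted p = 0.0901) and did not pass.

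**Figure D2:**
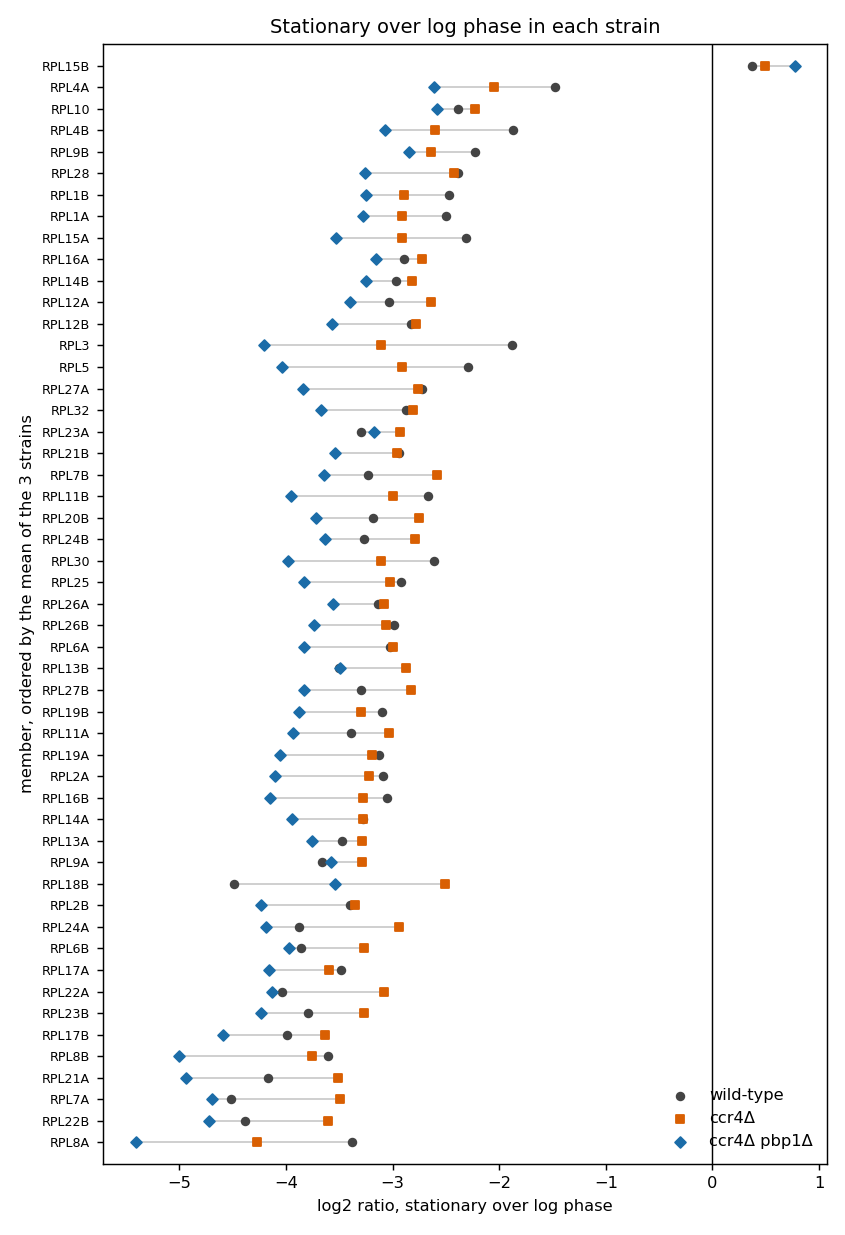
Log2 ratio of stationary over log phase (horizontal axis) for 51 members (vertical axis, ordered by the mean of the 3 strains), with 1 symbol per strain, under the 75th percentile scaling. Only *RPL15B*, between 0.37 and 0.77, lies above 0, and the others lie at -1.48 or lower in every strain.

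Among the single-copy genes, *RPL3* (YOR063W) encodes a protein that reaches close to the peptidyl transferase centre. Its level was 3.83 in wild-type, 3.49 in *ccr4Δ* and 3.66 in *ccr4Δ pbp1Δ* in log phase, then 1.95, 0.38 and -0.55 in stationary phase. Its log phase levels lay within 0.35 of each other, and its stationary phase levels were far apart, with wild-type highest and *ccr4Δ pbp1Δ* lowest. The log2 ratio of stationary over log phase was -1.88 in wild-type, -3.11 in *ccr4Δ* and -4.21 in *ccr4Δ pbp1Δ*. *RPL3* fell by 3.07 in the additive fit (SE 0.44, limma adjusted p = 0.00309), the largest SE and the highest adjusted p of the 51.

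*RPL5* (YPL131W) encodes the protein that carries the 5S rRNA into the subunit together with Rpl11. Its levels were 4.67, 4.39 and 4.53 in log phase, then 2.38, 1.48 and 0.49 in stationary phase. They fell by 3.08 in the fit (SE 0.36, limma adjusted p = 0.00174). *RPL5* showed the same order of strains in stationary phase as *RPL3*. Of the pair *RPL11*, which acts with it, *RPL11A* had log2 ratios of stationary over log phase of -3.39, -3.03 and -3.93 and *RPL11B* of -2.67, -3.0 and -3.95.

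*RPL10* (YLR075W) encodes a protein that joins the subunit late, in the cytoplasm, and is needed for the subunits to join. It stood at 4.50, 4.14 and 4.31 in log phase and at 2.10, 1.91 and 1.73 in stationary phase. The strains lay within 0.37 of each other in each phase, closer together in stationary phase than *RPL3* or *RPL5*. Its fall in the fit was one of the smaller ones, with a difference of -2.40 (SE 0.22, limma adjusted p = 8.71e-04).

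*RPL25* (YOL127W) encodes a protein at the mouth of the exit tunnel, where the signal recognition particle docks. Its levels were 4.16, 3.65 and 3.89 in log phase, then 1.24, 0.63 and 0.06 in stationary phase. *RPL28* (YGL103W) is known as *CYH2*, the gene in which mutations give resistance to cycloheximide, and it stood at 4.45, 4.20 and 4.25 and then at 2.06, 1.78 and 0.99. The *RPL28* levels of wild-type and *ccr4Δ* in stationary phase lay 0.28 apart, with *ccr4Δ pbp1Δ* below both.

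*RPL30* (YGL030W) encodes a protein that binds its own pre-mRNA and blocks its splicing. Its levels were 4.71, 4.23 and 4.42 in log phase, then 2.10, 1.12 and 0.44 in stationary phase. *RPL32* (YBL092W) stood at 4.19, 3.63 and 3.88 and then at 1.31, 0.81 and 0.21. In each of the 7 single-copy genes, the stationary phase arrays had lower levels than every log phase array, and the *ccr4Δ pbp1Δ* stationary phase array was the lowest of the 6. The median log2 ratio of stationary over log phase of these 7 genes was -2.39 in wild-type, -2.91 in *ccr4Δ* and -3.83 in *ccr4Δ pbp1Δ*.

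The ratios of stationary over log phase ranged widely among the members. In wild-type *RPL7A* stood at -4.52, near the lower end, and *RPL4A* at -1.48, the highest after *RPL15B*. Rpl4 lines part of the exit tunnel, and *RPL4A* (YBR031W) stood at 4.64, 4.35 and 4.45 in log phase and at 3.16, 2.30 and 1.84 in stationary phase. Its copy *RPL4B* had ratios of -1.87, -2.60 and -3.07, which were also among the smaller ones in size. *RPL4A* fell by 2.05 in the fit (SE 0.28, limma adjusted p = 0.00278).

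At the other end, *RPL8A* (YHL033C) had log2 ratios of stationary over log phase of -4.27 in *ccr4Δ* and -5.41 in *ccr4Δ pbp1Δ*, the lowest member in both. Rpl8 is needed for early steps in the making of the large subunit. The level of *RPL8A* was 2.88, 2.32 and 2.58 in log phase, then -0.50, -1.95 and -2.83 in stationary phase. Its copy *RPL8B* had ratios of -3.61, -3.76 and -5.00, so both copies lay in the lower part of the range in the mutants.

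*RPL22A* and *RPL22B* encode a protein that cells can do without, and that protein is known to reduce splicing of the *RPL22B* transcript. *RPL22A* (YLR061W) stood at 4.65, 4.19 and 4.36 in log phase and at 0.62, 1.11 and 0.23 in stationary phase. *RPL22B* (YFL034C-A) stood at 1.40, 0.94 and 1.38 and then at -2.98, -2.67 and -3.34. On this scale, both copies had their highest stationary phase level in *ccr4Δ*, unlike *RPL3*, *RPL5* and *RPL8A*, where wild-type was highest. The order depended on the scaling. With no scaling, the stationary phase signal of *RPL22B* was 1791 in wild-type and 1679 in *ccr4Δ*, and that of *RPL22A* was 21628 and 23056. Relative to *ACT1*, all 52 members were lower in *ccr4Δ* than in wild-type in stationary phase. *RPL22A* and *RPL22B* fell by 3.75 (SE 0.29) and 4.23 (SE 0.28) in the fit, with limma adjusted p of 7e-04 for each.

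Across the 52 members, the stationary over log phase ratios of wild-type and *ccr4Δ* had a Spearman's rho of 0.62, those of wild-type and *ccr4Δ pbp1Δ* 0.61, and those of the mutants 0.84. Without *RPL15B* the values were 0.60, 0.58 and 0.83. These ratios share no arrays, but the members are not independent and share probe brightness and labelling, so the values are a description.

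The additive fit also called the other cytosolic ribosomal protein genes. All 28 genes of the rest of the large subunit fell, with a median difference of -2.77, and all 57 genes of the small subunit fell, with a median of -3.12. Of 15 chaperones and maturation factors of the large subunit, 14 fell, with a median of -1.50, and of 8 genes of translation elongation 7 fell, with a median of -2.04. Of 11 regulators of ribosomal protein genes 1 fell and 2 rose, and of 34 genes of the mitochondrial large subunit none fell and 5 rose, with a median of 0.27. The members' median of -3.26 lay below that of each of these lists, and differences between lists were not tested.

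In log phase, the members were lower in *ccr4Δ* than in wild-type. The median log2 ratio was -0.53, a 1.44-fold lower level, against -0.07 over all genes. All 52 members were below 0, as were 55.3% of all genes, and 18 of 52 were at least 1.5-fold lower, against 15.9% of all genes. None was 1.5-fold higher, against 13.6% of all genes. The lowest were *RPL17B* at -1.24 and *RPL23A* at -1.10, and the highest were *RPL4A* at -0.28 and *RPL28* at -0.25.

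This shift depended on the scaling. Under quantile normalization the median was -0.12, 42 members were below 0 and 4 were at least 1.5-fold lower, and in the authors' processed values, which are quantile-normalized, the median was also -0.12, with 41 members below 0. Relative to the median of all genes, the members stood at -0.46 under the 75th percentile and at -0.07 under quantile normalization. The members hold some of the brightest probes of the array, and quantile normalization sets the brightest signals of all arrays equal. The 26 members with the dimmer probes had a median of -0.69 under the 75th percentile and -0.27 under quantile normalization, and the 26 brighter ones -0.46 and -0.06. Across the members, the ratio had a Spearman's rho of 0.68 with their mean level on the other 4 arrays, which share the probes' brightness.

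**Figure D3:**
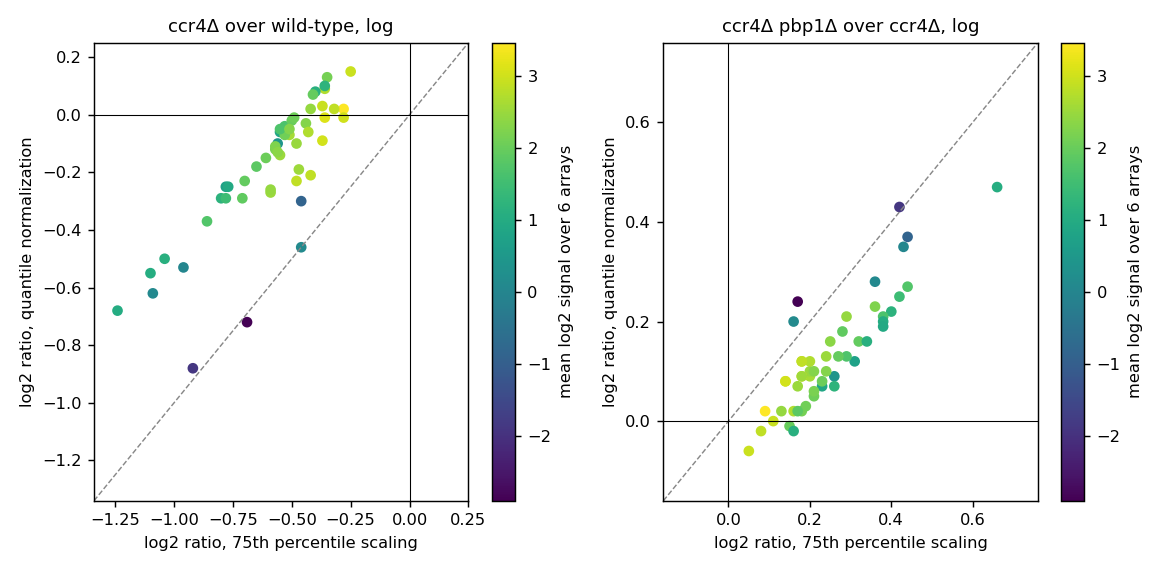
Log2 ratio of each member under the 75th percentile (horizontal axis) and under quantile normalization (vertical axis), for *ccr4Δ* over wild-type (left) and *ccr4Δ pbp1Δ* over *ccr4Δ* (right) in log phase, coloured by the member's mean level over the 6 arrays; the dashed line marks equal values. In the left panel the median moves from -0.53 to -0.12 and 10 members cross to above 0 or onto it.

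*RPL17B* (YJL177W) encodes a protein that lines the exit tunnel. It stood at 3.75 in wild-type, 2.51 in *ccr4Δ* and 2.89 in *ccr4Δ pbp1Δ* in log phase, and at -0.24, -1.11 and -1.70 in stationary phase. Wild-type was the highest strain in both phases. The log phase ratio to wild-type of *ccr4Δ* was -0.65 for its copy *RPL17A*, and this was the 1 pair of 22 whose copies lay at least 1.5-fold apart there.

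*RPL23A* (YBL087C) encodes a protein on the face that meets the small subunit, where it contacts the anti-association factor Tif6. It stood at 3.12, 2.02 and 2.68 in log phase and at -0.18, -0.92 and -0.49 in stationary phase. In both phases wild-type was highest and *ccr4Δ* lowest. In *ccr4Δ pbp1Δ* over *ccr4Δ* its ratio was 0.66 in log and 0.43 in stationary phase, while its copy *RPL23B* had 0.38 and -0.58.

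The log phase ratio of *ccr4Δ* to wild-type had a median of -0.36 among the single-copy genes, and none of the 7 reached 1.5-fold. The rest of the large subunit had a median of -0.51, with 28 of 28 genes below 0, and the small subunit one of -0.44, with 56 of 57 below 0. The mitochondrial large subunit had a median of 0.60, with 34 of 34 genes above 0. The elongation genes had a median of -0.19 and the chaperones one of -0.34. Beside these values, the 10 stationary phase markers had a median of 1.82 on the same arrays and all 10 were above 0. Their part in the members' ratios was not tested, and slide and strain cannot be told apart here.

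In stationary phase, *ccr4Δ* over wild-type had a median of -0.50 among the members, against -0.08 over all genes. Of the 52 members 44 were below 0, against 53.6% of all genes, and 22 were at least 1.5-fold lower, against 29.1% of all genes. *RPL18B* was the 1 member at least 1.5-fold higher, against 22.6% of all genes. The size depended on the reference. With no scaling the median was -0.89 and 40 members were at least 1.5-fold lower, and relative to *ACT1*, which itself stood at 1.32, it was -1.82 with *RPL18B* at -0.27. Both arrays lay on slide 2, and the stationary phase markers had a median of -0.54, with 7 of 10 below 0.

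The lowest members in this comparison were *RPL3* at -1.58 and *RPL8A* at -1.45, followed by *RPL4B* at -1.10 and *RPL15A* at -1.01. The highest were *RPL18B* at 1.05 and *RPL22A* at 0.49. The single-copy genes had a median of -0.60, all 7 were below 0, and 4 were at least 1.5-fold lower. The rest of the large subunit had a median of -0.15, with 3 of 28 genes at least 1.5-fold lower, and the small subunit one of -0.34, with 15 of 57. The chaperones and maturation factors of the large subunit had a median of -1.19, and 11 of 15 were at least 1.5-fold lower, with *ARX1*, an export factor of the large subunit, lowest at -2.16. The mitochondrial large subunit had a median of 1.36, with 34 of 34 genes above 0.

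No member passed the threshold for *ccr4Δ* minus wild-type in the additive fit (limma, adjusted p from 0.196 to 0.987), against 0.122% of 5724 genes that were called lower and 0.0524% called higher. At an unadjusted p under 0.05, 6 members were lower and none higher. Without the wild-type log phase array, 7 members were called lower, namely *RPL1A*, *RPL1B*, *RPL3*, *RPL4B*, *RPL8A*, *RPL15A* and *RPL30*, and *RPL3* had a difference of -1.85 (limma adjusted p = 0.0188). In that fit 14.6% of 5724 genes were called lower and 10.9% higher, so the 7 of 52 members were no larger a share than among all genes. The fit takes the wild-type level from the stationary phase array alone and has 1 residual degree of freedom. Leaving out any other array gave 0 called members.

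**Figure D4:**
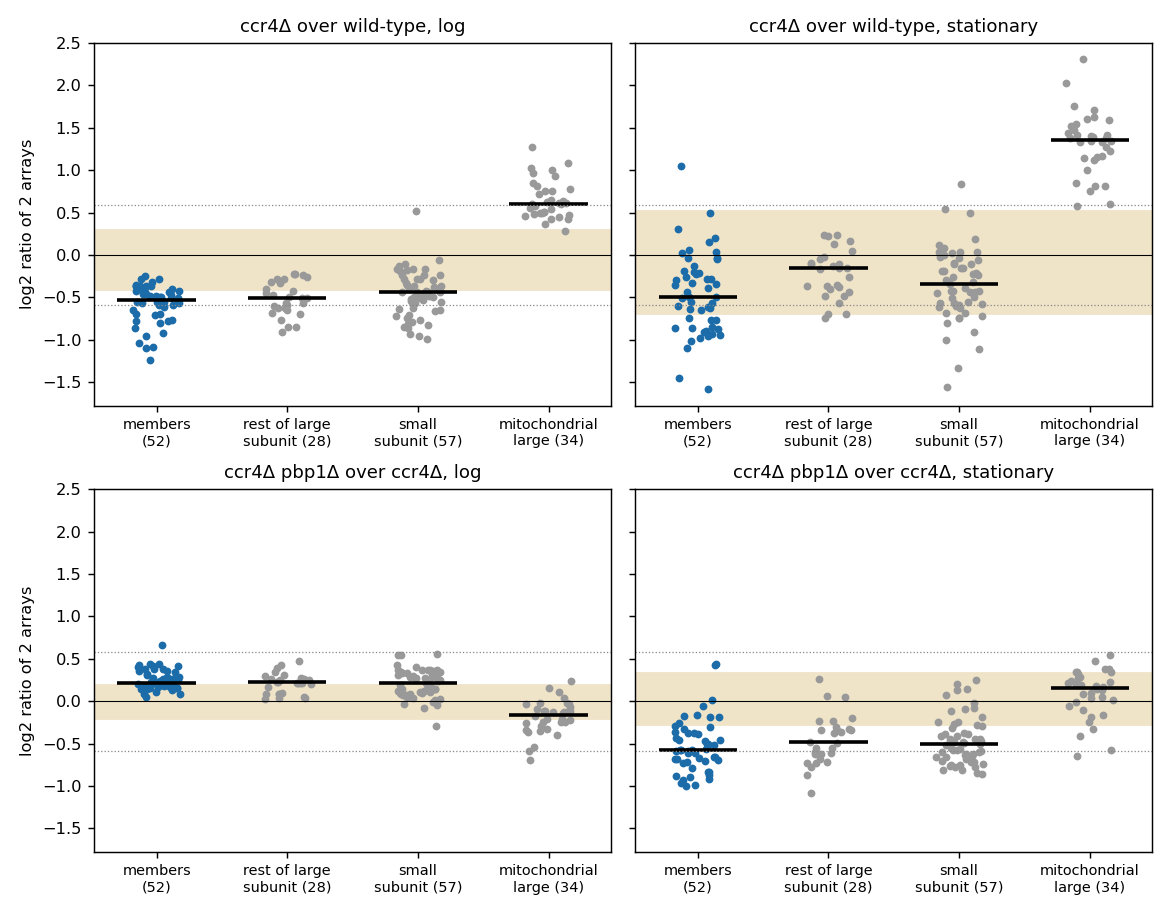
Log2 ratio of 2 arrays (vertical axis) for the members and for 3 other groups of ribosomal protein genes (horizontal axis, number of genes in brackets), 1 panel per strain comparison and growth phase. Bars are medians, dotted lines the 1.5-fold limit and the band the range from the lower to the upper quartile of all genes; in the lower panels the members' median is 0.22 in log phase and -0.58 in stationary phase.

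In log phase, the members were slightly higher in *ccr4Δ pbp1Δ* than in *ccr4Δ*. The median log2 ratio was 0.22, a 1.17-fold difference, against 0.01 over all genes, and 52 of 52 members were above 0, as were 51.5% of all genes. *RPL23A*, at 0.66, was the 1 member at least 1.5-fold higher, against 1.52% of all genes, and none was 1.5-fold lower, against 6.98%. The lowest were *RPL28* at 0.05 and *RPL12B* at 0.08, and the second highest was *RPL22B* at 0.44. Under quantile normalization the median was 0.11, 48 members were above 0 and none was past the limit.

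*RPL12B* (YDR418W) encodes the protein at the base of the ribosomal stalk, where translation factors are recruited. It stood at 4.56, 4.23 and 4.31 in log phase and at 1.73, 1.46 and 0.74 in stationary phase. The *ccr4Δ pbp1Δ* array was between the other strains in log phase and the lowest in stationary phase. On the 28 other genes of the large subunit the median in log phase was 0.23, with 28 above 0, and on the small subunit 0.21, with 52 of 57 above 0. The stationary phase markers had a median of -1.66, with 10 of 10 below 0, and their part in the members' ratios was not tested.

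In stationary phase, the direction was the opposite, and the members were lower in *ccr4Δ pbp1Δ* than in *ccr4Δ*. The median was -0.58, a 1.49-fold lower level, against 0.04 over all genes. Of the 52 members 49 were below 0, against 46.1% of all genes, and 24 were at least 1.5-fold lower, against 10.8% of all genes. None was 1.5-fold higher, against 10.4%. The lowest were *RPL21A* at -1.0 and *RPL5* at -0.99, and those above 0 were *RPL15B* at 0.44, *RPL23A* at 0.43 and *RPL9A* at 0.01. The stationary phase markers had a median of -0.08 on these arrays, with 6 of 10 below 0.

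Relative to the median of all genes the members stood at -0.62 under the 75th percentile and at -0.64 under quantile normalization. With no scaling, where all genes had a median of 0.27, that of the members was -0.35 and 10 were at least 1.5-fold lower. The rest of the large subunit had a median of -0.48, with 25 of 28 genes below 0, and the small subunit one of -0.50, with 52 of 57 below 0. The single-copy genes had a median of -0.68 and 5 of 7 were at least 1.5-fold lower. The mitochondrial large subunit had a median of 0.16. In the additive fit no member was called for *ccr4Δ pbp1Δ* minus *ccr4Δ*, where the growth phases are averaged (limma, adjusted p = 1 for each member, and none at an unadjusted p under 0.05). No gene of the array was called in that contrast, 0.0% in each direction.

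The log2 shift from log to stationary phase was thus lower in *ccr4Δ pbp1Δ* than in *ccr4Δ* for 51 of 52 members. The members' median difference was -0.84, while 45.6% of all genes had a difference below 0. For 36 members this difference was at least 1.5-fold, against 11.9% of all genes. The exception was *RPL15B*, with 0.28. Against wild-type, the shift of *ccr4Δ* differed by a median of 0.06, and 22 of 52 members were below 0, against 51.8% of all genes, with *RPL3* at -1.23 and *RPL18B* at 1.97 as the ends of the range. By at least 1.5-fold, 5 members were lower and 10 higher, against 25.5% and 22.1% of all genes. These values are under the 75th percentile scaling, and which of these strains had the lower median shift depended on the scaling. The median shifts of wild-type and *ccr4Δ* were -3.29 and -3.05 under median scaling, and -3.2 and -3.48 with no scaling. Under quantile normalization they were -2.54 and -2.86, and relative to *ACT1* -0.76 and -2.31. The wild-type shift was taken across slides and those of the mutants within slide 2, so slide and strain cannot be told apart in differences from wild-type. With 1 array per condition these differences were not tested.

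Paralogs were compared by the difference of their ratios, the A copy minus the B copy, which leaves probe brightness out. The probe sequences were not given in the files, so hybridisation of 1 copy's transcript to the other copy's probe was not checked. Shared signal would bring the copies' ratios closer together, and a small difference does not show that the copies moved alike. In the strain comparisons, pairs at least 1.5-fold apart numbered 1 of 22 for *ccr4Δ* over wild-type in log and 6 in stationary phase, and 0 and 3 for *ccr4Δ pbp1Δ* over *ccr4Δ*. For stationary over log phase they numbered 7 in wild-type, 4 in *ccr4Δ* and 9 in *ccr4Δ pbp1Δ*. The median size of the difference was 0.36, 0.38 and 0.44 in those, against 0.08 to 0.34 in the strain comparisons.

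**Figure D5:**
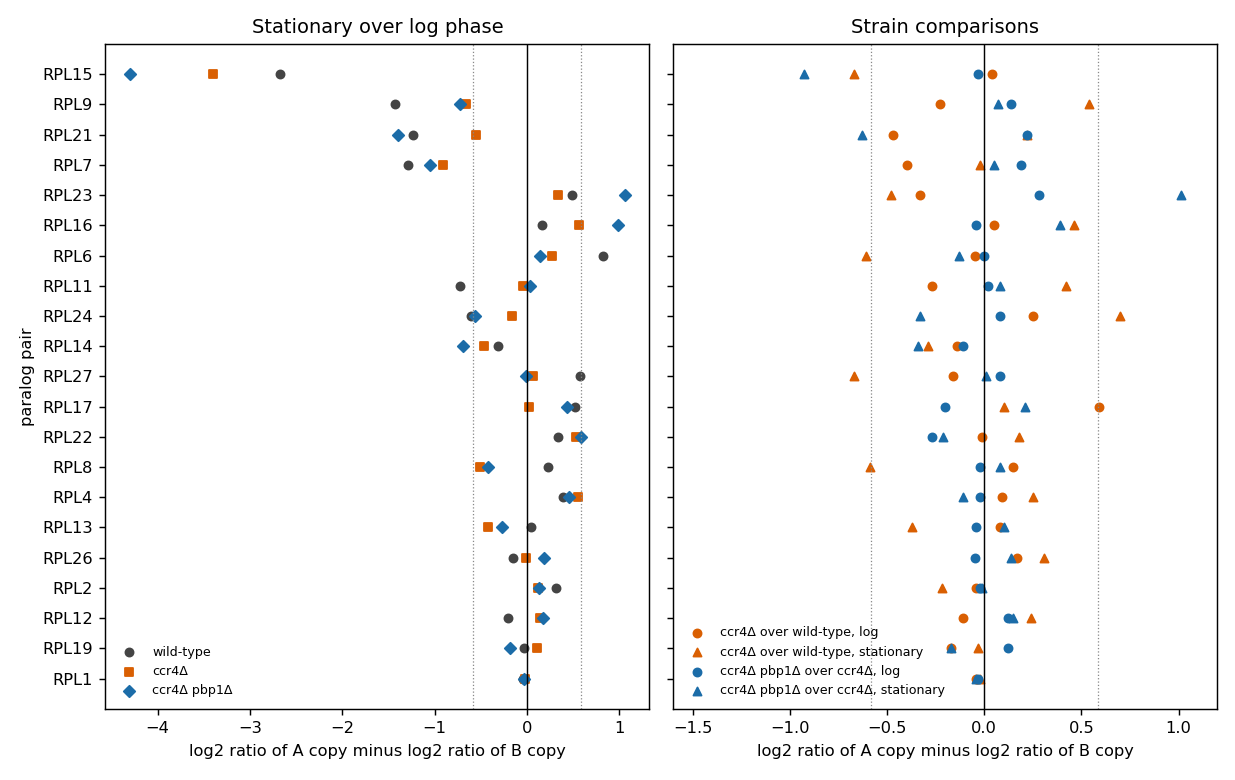
Difference of the log2 ratios of the A and B copy (horizontal axis) for 21 paralog pairs (vertical axis, ordered by the largest difference), for stationary over log phase in each strain (left) and for the strain comparisons (right), with dotted lines at 1.5-fold. *RPL15* lies at -2.68, -3.40 and -4.30 on the left, and *RPL1* lies within 0.04 of 0 throughout.

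The pair with the largest difference was *RPL15*. *RPL15A* (YLR029C) stood at 4.14 in wild-type, 3.72 in *ccr4Δ* and 3.85 in *ccr4Δ pbp1Δ* in log phase, and at 1.83, 0.82 and 0.32 in stationary phase. *RPL15B* (YMR121C) stood at 0.09, -0.37 and -0.21 in log phase and at 0.46, 0.12 and 0.56 in stationary phase. *RPL15B* was thus higher in stationary phase than in log phase in all 3 strains, while *RPL15A* was lower. The lowest stationary phase level of *RPL15B* lay 0.03 above its highest log phase level, less than the SD between spots, and the phases overlapped with no scaling and under median scaling. With no scaling its ratio in *ccr4Δ* was 0.02. The log2 ratios of *RPL15B* were 0.37, 0.49 and 0.77, and in *ccr4Δ pbp1Δ* it was the 1 member past 1.5-fold in this direction, against 35.9% of all genes. Its adjusted p in the limma fit ranged from 0.0456, without either wild-type array, to 0.406, without either *ccr4Δ pbp1Δ* array. *RPL15A* fell by 2.92 in the fit (SE 0.29, limma adjusted p = 0.00109).

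*RPL18B* (YNL301C) stood at 0.32, -0.60 and -0.18 in log phase and at -4.16, -3.11 and -3.72 in stationary phase. In log phase wild-type was the highest strain and *ccr4Δ* the lowest, and in stationary phase the order was turned, with *ccr4Δ* above wild-type by 1.05. *RPL18B* fell by 3.51 in the fit (SE 0.39, limma adjusted p = 0.00144).

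The *RPL9* copies encode a protein near the site where elongation factors bind. *RPL9A* (YGL147C) stood at 4.50, 3.91 and 4.20 in log phase and at 0.83, 0.61 and 0.62 in stationary phase. *RPL9B* (YNL067W) stood at 4.18, 3.82 and 3.98 and then at 1.95, 1.18 and 1.13. The A copy was shifted further in each strain, by a difference of -1.43, -0.66 and -0.73. For both copies the mutants lay within 0.06 of each other in stationary phase.

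*RPL21A* (YBR191W) stood at 2.62, 1.66 and 2.09 in log phase and at -1.55, -1.85 and -2.84 in stationary phase. *RPL21B* (YPL079W) stood at 3.89, 3.40 and 3.61 and then at 0.95, 0.44 and 0.07. The A copy minus the B copy in stationary over log phase was -1.23, -0.55 and -1.40. In *ccr4Δ pbp1Δ* over *ccr4Δ* in stationary phase the copies had ratios of -1.0 and -0.37, so the A copy differed more between the mutants as well.

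*RPL7A* (YGL076C) stood at 2.81, 1.72 and 2.08 in log phase and at -1.71, -1.77 and -2.60 in stationary phase. *RPL7B* (YPL198W) stood at -0.93, -1.62 and -1.45 and then at -4.16, -4.20 and -5.08. The A copy was shifted further from log to stationary phase in all 3 strains, by -1.29, -0.91 and -1.05. In stationary phase *ccr4Δ* differed from wild-type by -0.05 for *RPL7A* and by -0.03 for *RPL7B*, and *ccr4Δ pbp1Δ* was lowest for both.

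Other pairs differed in 1 or 2 comparisons. The *RPL23* copies, which encode the same protein, were 1.01 apart in *ccr4Δ pbp1Δ* over *ccr4Δ* in stationary phase, the largest difference of a pair in that comparison. The *RPL16* copies were 0.99 apart in stationary over log phase in *ccr4Δ pbp1Δ* and 0.16 in wild-type. The *RPL6* copies were 0.83 apart in wild-type and 0.14 in *ccr4Δ pbp1Δ*. The *RPL24* copies had ratios of 0.15 and -0.55 in *ccr4Δ* over wild-type in stationary phase, on opposite sides of 0. At the other end, the *RPL1* copies, which encode the protein of the mobile L1 stalk near the exit of used tRNA, lay within 0.04 of each other in all 7 comparisons, and the *RPL19* copies within 0.18.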

How the data were processed

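The authors deposited the scanner output of 6 yeast arrays, 1 for each strain and growth phase, as the intensity of each spot with flags and background from Feature Extraction 11.0.1.1, and a table of processed intensities. The deposited table is quantile-normalized, since its sorted values are the same on every array. Array labelling was by the yeast oligo kit, per the labels.

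Control spots and spots marked as outliers were left out. The log2 of the processed signal minus the 75th percentile of the array was averaged over the 2 spots of a probe. A gene was measured where both spots of a probe were well above background. Symbols and chromosomes came from a RefSeq table, in which 5720 of 6225 systematic names were found. The array annotation is on another build, so no coordinates are given.

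Ratios of 2 arrays have no p. Counts of genes at least 1.5-fold apart are over the 5760 to 6033 genes measured on both arrays of a ratio. The additive fit over 5724 genes was made in R 4.3.3 with limma 3.58.1 (lmFit, then eBayes), with Benjamini-Hochberg adjustment at 0.05. As a check of the code, its growth phase contrast was run on simulated data with equal noise for every gene and no strain differences. On the arrays the SE differed between genes, so the error rate there was not tested. Other steps used Python 3.11.15 and pandas 2.3.3.

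The members and lists were chosen with earlier results of these data known. Members named with values on every array are the single-copy genes, the 2 highest and 2 lowest of each ratio, and the 5 pairs furthest apart. 1 of these members is counted and not reported here by name. Alternatives were leaving out each array, a trended prior, a 2-fold limit, no filter on dim probes, *ACT1* as reference, the brightest probe, the authors' table, and scaling by the median, by quantiles or not at all. Normexp with an offset of 50 used the median signal, as the scanner tables have no mean signal. *ccr4Δ pbp1Δ* over wild-type was added after the data were seen. A search of promoters for Rap1 and Fhl1 motifs and the protein identity of the paralogs were planned and not analysed here. The number of arrays limits the precision.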

Additional observations from a re-analysis of the deposited data

Results flagged for a closer look

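For *RPL18B*, *ccr4Δ* over wild-type on the log2 scale was -0.92 in log and 1.05 in stationary phase, which differ by -1.97, so the strains stood in opposite order in the growth phases. Its spots gave the same signs, and relative to *ACT1* the stationary phase value was -0.27. The log phase ratio was taken across slides 1 and 2 and the stationary phase ratio within slide 2, and the part of slide was not tested. The median of the members for *ccr4Δ pbp1Δ* over *ccr4Δ* was 0.22 in log and -0.58 in stationary phase, and these differ by 0.8. With 1 array per condition neither difference was tested.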

How the results depend on the processing

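No paired analysis was possible because each strain and growth phase had 1 array and no replicate number could serve as a block. The additive fit compares the growth phases within strains. The cause of each change below was not tested, except that a 2-fold limit lowers a count by construction. The members' median kept its sign in all 7 ratios under every alternative run, and the additive fit called 51 members lower in stationary phase under each alternative it was run with, which left out *ACT1* as reference and the 2-fold limit. The brightest probe and no filter on dim probes could not change a member's ratio, as each member had 1 probe and passed the filter.

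For *ccr4Δ* over wild-type in log phase, the median was -0.12 with 4 members at least 1.5-fold lower under quantile normalization, -0.12 with 5 in the authors' values, and -0.19 with 5 relative to *ACT1*. A 2-fold limit left 4, and *ccr4Δ pbp1Δ* over wild-type, added after seeing the data, gave -0.30 and 3. In stationary phase it was -0.89 with 40 under no scaling, -1.82 with 51 relative to *ACT1*, and -1.03 with 41 for *ccr4Δ pbp1Δ*, and a 2-fold limit left 4. *RPL18B* was at -0.27 relative to *ACT1*.

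For *ccr4Δ pbp1Δ* over *ccr4Δ* in log phase, no scaling gave 0.36 with 2 higher, quantile normalization and the authors' values 0.11 with 0 each, and a 2-fold limit 0. In stationary phase it was -0.35 with 10 lower under no scaling and -0.78 with 37 relative to *ACT1*, and a 2-fold limit left 0.

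For stationary over log phase, the wild-type median was -3.29 under median scaling, -2.54 under quantile normalization, -2.63 in the authors' values and -0.76 relative to *ACT1*, where *RPL3* was at 0.47, *RPL4A* at 0.87, *RPL4B* at 0.48, *RPL5* at 0.07, *RPL9B* at 0.12 and *RPL15A* at 0.04. In *ccr4Δ* it was -3.48 under no scaling, -2.86 under quantile normalization and -2.31 relative to *ACT1*, and in *ccr4Δ pbp1Δ* -4.22, -3.55, -3.39 and, in the authors' values, -3.65. Pairs at least 1.5-fold apart numbered 0 for *ccr4Δ* over wild-type in log phase under normexp, and 9 for stationary over log phase in *ccr4Δ* both in the authors' values and under quantile normalization. With each array left out, 0 to 7 members were called lower for *ccr4Δ* minus wild-type, and the fit that gave 7 called 14.6% of all genes lower.

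Single members had 2548 values under the alternatives. Those of the brightest probe setting are counted in, and they could not move, as each member had 1 probe. Of the 2548, 1453 moved less than the SD between spots of both arrays combined, as the root of the summed squares. In all, 70 changed sign, and 7, those named above relative to *ACT1*, changed sign from past the 1.5-fold limit. *ACT1* moved the median of all genes to 2.40 in wild-type stationary over log phase and to -1.41 in *ccr4Δ* over wild-type in stationary phase. Among all genes past 1.5-fold in the latter, 43.7% were higher under the 75th percentile and 20.4% with no scaling.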

Other observations

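Several members lie beside another ribosomal protein gene. *RPL24A* and *RPL30* are transcribed away from each other on chromosome VII. Their log2 ratios of *ccr4Δ* over wild-type were -0.78 and -0.48 in log phase, then 0.15 and -0.98 in stationary phase, so the stationary phase values lay on opposite sides of 0. *RPL13B* and *RPS16A* on chromosome XIII are also divergent, and their ratios of stationary over log phase were -3.50 and -3.52 in wild-type, -2.87 and -2.78 in *ccr4Δ*, and -3.49 and -3.58 in *ccr4Δ pbp1Δ*. *RPS9B* and *RPL21A* are in tandem on chromosome II, and there the ratios were -3.15 and -4.17 in wild-type, -3.72 and -3.51 in *ccr4Δ*, and -4.34 and -4.94 in *ccr4Δ pbp1Δ*, so *RPL21A* was the lower of the pair except in *ccr4Δ*. These pairs were chosen after their values were seen, and no test was made.

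Values for the factors that assemble the large subunit stood apart from those of its proteins, most of all in wild-type, and the difference was not tested. From log to stationary phase the 15 chaperones and maturation factors had a median log2 ratio of -0.75 in wild-type, -1.66 in *ccr4Δ* and -2.14 in *ccr4Δ pbp1Δ*, while the members had -3.11, -3.0 and -3.83. *SYO1*, whose product imports Rpl5 and Rpl11 together, was the lowest factor in *ccr4Δ pbp1Δ* at -4.13, and *MRT4*, an assembly factor of the stalk, was the lowest in wild-type at -2.82 and in *ccr4Δ* at -2.86.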
